A study of Mus musculus with 11 samples.

Results

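Cd79a, Cd79b, Blnk, Ms4a1, Vpreb1, Igll1, Rag1, Pax5 and Ebf1 are 9 genes by which B cells and their pro-B precursors are commonly recognised. They were taken from 18193 genes with a probe set of 1 symbol, as known B lineage genes, but with earlier results of these data known. Where a gene had several such probe sets, the brightest on average across the 11 arrays was read. The arrays measured RNA of 6 sorted mouse cell populations, all taken without culture and from pooled male and female mice. P-SSCs (2 arrays) were periosteal skeletal stem cells, sorted as CD45-, CD31-, Ter119-, CD105+, CD140a+, Mx1+ and Osteocalcin- from mice that joined Mx1-Cre, the Rosa-Tomato reporter and Osteocalcin-GFP. BM-SSCs (2 arrays) were the marrow counterpart, sorted with the same surface markers as Mx1+Nes+ cells from mice with Nestin-GFP in place of Osteocalcin-GFP. Both came from mice that had received 9.5 Gy at 4 weeks of age, a marrow graft from wild-type C57BL/6 donors and then 25 mg/kg pIpC, the interferon inducer that switches on Mx1-Cre, so that their host blood cells had been replaced before labelling. CD51+ BMSCs (2 arrays) were CD45-CD31-Ter119- marrow cells selected for CD51, to which the study's methods add CD105 and CD140a. Nes+ BMSCs (1 array) carried the Nestin-GFP reporter with or without Mx1, and Osx+ cells (2 arrays) were osteoprogenitors that carried an Osterix-GFP reporter. For the Nes+ array the title gives marrow and the source field periosteal tissue. CD45+ cells (2 arrays) were the blood cells of the marrow, and are the population in which B lineage cells should lie. The sources used here do not give mouse age and treatment for the CD51+, Nes+, Osx+ and CD45+ arrays, nor whether the 2 arrays of a population came from separate mice, so that p-values measure the spread between these arrays.

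B cells arise in the marrow from progenitors in which the transcription factor Ebf1 switches on the B lineage programme and Pax5, its partner downstream, keeps it in place. Rag1 cuts the immunoglobulin genes, the surrogate light chain of Vpreb1 and Igll1 carries the first heavy chain to the surface of pro-B and pre-B cells, and Cd79a and Cd79b carry the signal of the receptor through the adaptor Blnk. Ms4a1 encodes CD20, a surface protein of later B cells. Stromal cells around these precursors supply Cxcl12, interleukin 7 and Kit ligand, and Ebf1 is itself known in marrow stroma and in fat cell precursors.

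Cd79a, Vpreb1 and Igll1 are classic mouse targets of Ebf1, which binds a short palindrome. Their upstream sequences are shown because Ebf1 stood high in populations where Cd79a stood low, as described further on. RefSeq promoters of build GRCm38.p6 were at hand for 7 of the 9 genes, and the 250 bases before each start were searched on both strands for CTCNNGGG and CCCNNGGG, letters found at the core of Ebf sites. CTCNNGGG was present in 3 of the 7 genes, and in 20.7% of 32851 mouse promoters of the same length. CCCNNGGG was present in Igll1 alone, and in 11.8% of all promoters. Every CTCNNGGG match lay on the gene's own strand, while CCCNNGGG reads alike on both strands. Matches are set in capitals below, each sequence running 5′ to 3′ along the gene.
Cd79a (chr7:24897247-24897496, plus strand): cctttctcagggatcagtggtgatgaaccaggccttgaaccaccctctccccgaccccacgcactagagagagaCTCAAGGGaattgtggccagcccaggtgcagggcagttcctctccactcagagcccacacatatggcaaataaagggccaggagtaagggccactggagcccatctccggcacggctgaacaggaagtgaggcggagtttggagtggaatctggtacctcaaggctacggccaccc
Vpreb1 (chr16:16869256-16869505, minus strand): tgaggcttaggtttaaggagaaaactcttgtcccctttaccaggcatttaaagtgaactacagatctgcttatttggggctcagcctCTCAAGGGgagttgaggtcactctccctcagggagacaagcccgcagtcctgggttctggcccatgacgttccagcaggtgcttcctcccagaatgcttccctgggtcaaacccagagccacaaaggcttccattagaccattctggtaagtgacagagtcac
Igll1 (chr16:16863986-16864235, minus strand): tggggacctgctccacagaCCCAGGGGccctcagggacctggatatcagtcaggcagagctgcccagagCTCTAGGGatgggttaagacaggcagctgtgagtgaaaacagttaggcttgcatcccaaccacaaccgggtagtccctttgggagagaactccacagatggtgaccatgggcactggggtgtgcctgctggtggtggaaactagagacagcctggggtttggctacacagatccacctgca

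The matched letters were CTCAAGGG in Cd79a, 176 bases before the start, and again CTCAAGGG in Vpreb1, 163 bases before it. Igll1 held CTCTAGGG at 181 bases and CCCAGGGG at 231 bases before its start. The upstream windows of Pax5, Ebf1, Blnk and Rag1 held neither motif, and those of Cd79b and Ms4a1 were not analysed here. A match marks letters in a window, and no binding was measured.

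Values below are log2 RMA signals, in which 1 unit is a 2-fold change, and a gene passed at an adjusted p under 0.05 in limma over 45037 probe sets. P-SSC array 2 and BM-SSC array 2 stood apart from the other 9. Their signals were compressed, with an interquartile range of 1.81 and 1.98 against 2.43 to 3.56 elsewhere, and the 3′ actin control gave 7.81 and 12.78 against 13.23 to 14.25. The 2 P-SSC arrays correlated at 0.456 over all probe sets and the 2 BM-SSC arrays at 0.771, against 0.985 to 0.995 in the other pairs. Genes of 70 olfactory and vomeronasal receptors, which none of these cells should use, had a median of 2.73 to 4.52 per array and a 95th percentile of 4.19 to 6.997, the highest on P-SSC array 2. All 9 B lineage genes read below 6.997 on that array. Against CD45+ cells the median difference of these receptor genes was 0.94 in P-SSCs, 0.64 in BM-SSCs, -0.06 in CD51+ BMSCs, 0.61 in Nes+ BMSCs and 0.04 in Osx+ cells. Where a population had 1 array in a fit, as Nes+ BMSCs always had, its spread came wholly from the other populations and it was assumed to vary like them. Ptprc, the gene of CD45, read 2.42 to 7.42 on the P-SSC, BM-SSC, Nes+ and Osx+ arrays and, against the CD45- label, 10.23 and 10.17 on the CD51+ arrays, while the CD45+ arrays gave 12.06 and 12.05.

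The receptor and surface genes stood highest in CD45+ cells. Cd79b, the second chain of the receptor's signalling pair, read 4.83 and 4.84 in P-SSCs, 5.07 and 5.41 in BM-SSCs, 7.25 and 5.62 in CD51+ BMSCs, 4.35 in Nes+ BMSCs and 3.90 and 4.44 in Osx+ cells, against 11.33 and 11.54 in CD45+ cells. No array of the 5 stromal or osteogenic populations came within 4 units of the CD45+ arrays, and CD51+ array 1 was the nearest. P-SSCs differed from CD45+ cells by -6.60 ± 0.530 (SE, adjusted p = 0.00111). The difference of BM-SSCs was -6.20 (adjusted p = 0.00136), and further values were -5.00 in CD51+ BMSCs (adjusted p = 0.00388), -7.09 in Nes+ BMSCs (adjusted p = 0.00299) and -7.27 in Osx+ cells (adjusted p = 0.000302). In such bulk samples, fewer B lineage cells and less RNA per cell cannot be told apart. The CD51+ call was lost without either CD45+ array (adjusted p 0.0629 and 0.0692).

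Ms4a1, too, was highest in CD45+ cells, but CD51+ BMSCs did not stand second. It read 4.56 and 5.78 in P-SSCs, 4.47 and 6.18 in BM-SSCs, 5.41 and 4.64 in CD51+ BMSCs, 5.24 in Nes+ BMSCs and 4.05 and 3.41 in Osx+ cells, against 11.38 and 11.40 in CD45+ cells. The higher values within P-SSCs and BM-SSCs were those of array 2. Differences from CD45+ cells ran from -7.65 ± 0.658 in Osx+ cells (SE, adjusted p = 0.000536) to -6.06 in BM-SSCs (adjusted p = 0.0025), and all 5 passed. The other Ms4a1 probe set gave differences of -7.77 to -6.57, and all 5 passed there too. The CD51+ call of the brighter probe set was lost without CD51+ array 2 or either CD45+ array, and the Nes+ call without either CD45+ array (adjusted p 0.0609 to 0.0669).

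Cd79a, the first chain of the pair, was lower in all 5 populations than in CD45+ cells. It read 3.91 and 4.55 in P-SSCs, 4.27 and 5.15 in BM-SSCs, 4.27 and 3.63 in CD51+ BMSCs, 4.27 in Nes+ BMSCs and 3.86 and 3.99 in Osx+ cells, against 6.75 and 7.36 in CD45+ cells. The groups did not overlap, and the 5 differences of -3.13 to -2.34 passed. The smallest was that of BM-SSCs, at -2.34 ± 0.454 (SE, adjusted p = 0.0221). Each of the 5 calls was lost without at least 1 array, CD45+ array 2 among them in every case, with adjusted p between 0.0524 and 0.215.

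Blnk, which couples the receptor to its downstream kinases and is also used by macrophages, departed from this pattern in a single population. It read 4.57 and 5.46 in P-SSCs, 5.09 and 5.26 in BM-SSCs, 8.03 and 7.06 in CD51+ BMSCs, 4.39 in Nes+ BMSCs and 3.92 and 4.30 in Osx+ cells, against 9.91 and 10.10 in CD45+ cells. Both CD51+ arrays lay above every P-SSC, BM-SSC, Nes+ and Osx+ array and below both CD45+ arrays. The 5 differences from CD45+ cells passed, from -5.90 ± 0.452 in Osx+ cells (SE, adjusted p = 0.00035) to -2.46 in CD51+ BMSCs (adjusted p = 0.0216). Without either CD51+, Osx+ or CD45+ array the CD51+ difference missed the threshold (adjusted p 0.0566 to 0.214).

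**Figure D1:**
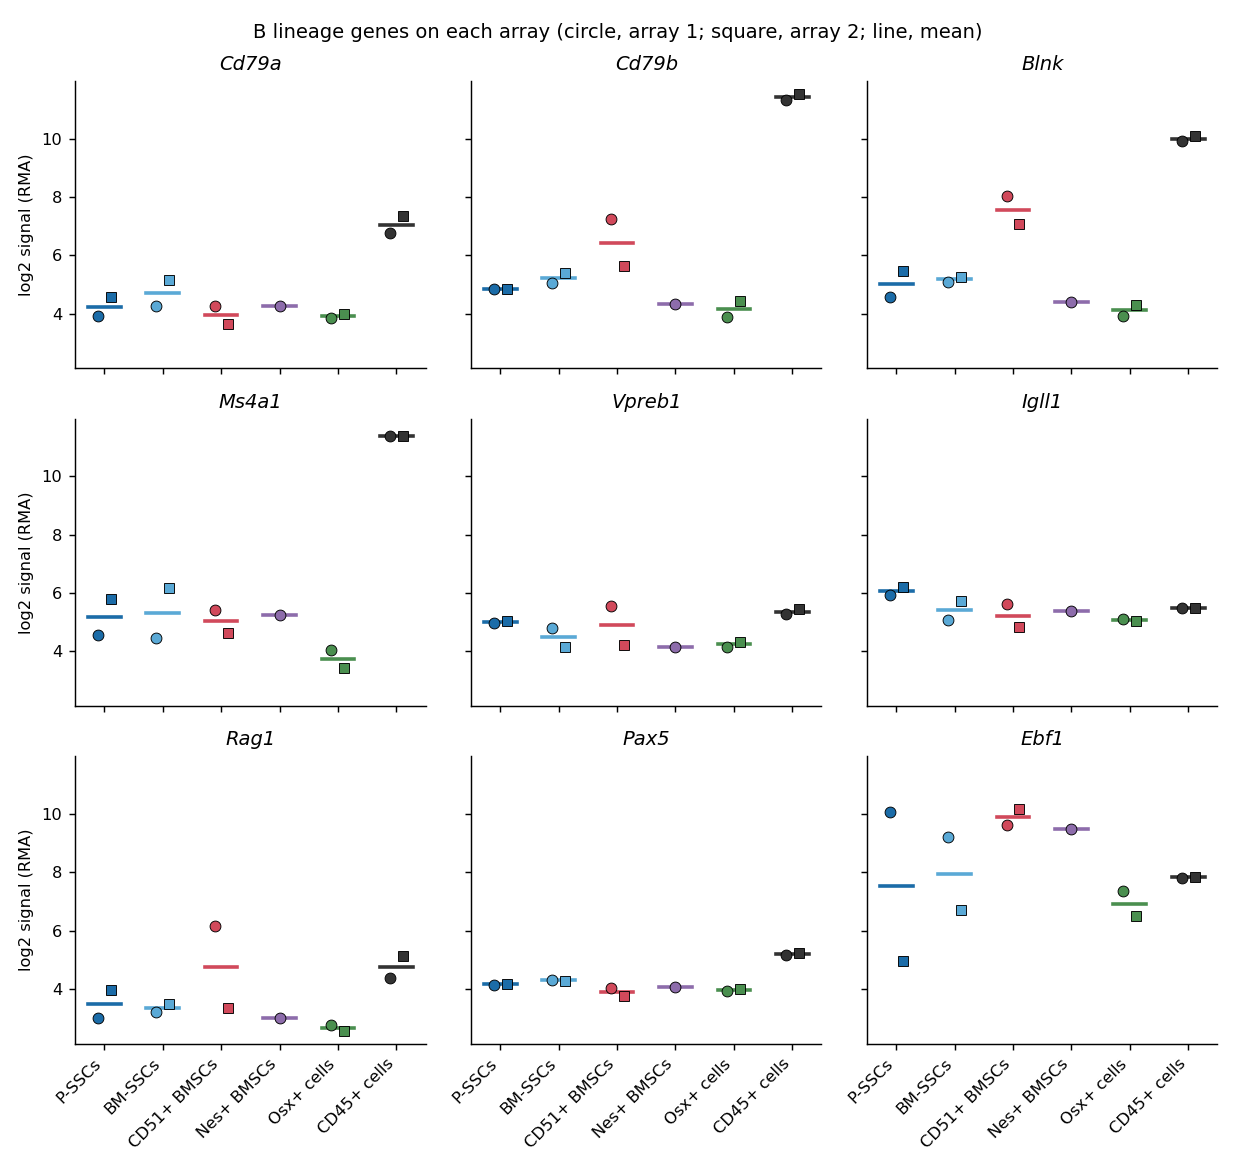
Log2 RMA signal of the 9 B lineage genes on each of the 11 arrays, by population. Circles are array 1, squares array 2 and lines the mean of a population. Cd79a, Cd79b, Blnk, Ms4a1 and Pax5 have both CD45+ arrays above every other array, CD51+ BMSCs stand second for Cd79b and Blnk, and Ebf1 is highest in CD51+ BMSCs.

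Vpreb1 and Igll1, the surrogate light chain genes, passed in no comparison with all 11 arrays weighted equally. Vpreb1 read 4.97 and 5.04 in P-SSCs, 4.797 and 4.15 in BM-SSCs, 5.56 and 4.23 in CD51+ BMSCs, 4.14 in Nes+ BMSCs and 4.15 and 4.32 in Osx+ cells, against 5.27 and 5.45 in CD45+ cells. CD51+ array 1 lay above both CD45+ arrays. Without both second SSC arrays Vpreb1 passed in Nes+ BMSCs (-1.22, adjusted p = 0.0491) and in Osx+ cells (-1.12, adjusted p = 0.0449), and it also passed in both with array weights or with only the compared arrays. Igll1 read 5.92 and 6.21 in P-SSCs, 5.06 and 5.74 in BM-SSCs, 5.61 and 4.84 in CD51+ BMSCs, 5.38 in Nes+ BMSCs and 5.11 and 5.05 in Osx+ cells, against 5.47 and 5.48 in CD45+ cells. The P-SSC arrays were here the highest, by 0.59 ± 0.390 over CD45+ cells (SE, adjusted p = 0.269), and the second Igll1 probe set gave 0.32 (adjusted p = 0.632). Both values were below the receptor genes' median difference of 0.94 in that comparison. A Vpreb1 probe set shared with Vpreb2 was left out.

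Rag1 was low on most arrays and uneven between replicates. It read 3.01 and 3.96 in P-SSCs, 3.20 and 3.47 in BM-SSCs, 6.17 and 3.33 in CD51+ BMSCs, 3.01 in Nes+ BMSCs and 2.74 and 2.57 in Osx+ cells, against 4.39 and 5.14 in CD45+ cells. CD51+ array 1 was the highest of all 11, and CD51+ array 2 was below both CD45+ arrays. The mean difference of CD51+ BMSCs from CD45+ cells was -0.01 ± 0.843 (SE, adjusted p = 1). It became 1.41 without CD51+ array 2 and -1.44 without CD51+ array 1. No Rag1 difference passed with all 11 arrays weighted equally. In Osx+ cells the difference of -2.11 passed in limma with only the compared arrays (adjusted p = 0.00231) and with array weights (adjusted p = 0.0381).

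Pax5 was low but orderly. It read 4.14 and 4.17 in P-SSCs, 4.31 and 4.28 in BM-SSCs, 4.04 and 3.77 in CD51+ BMSCs, 4.07 in Nes+ BMSCs and 3.92 and 3.98 in Osx+ cells, against 5.17 and 5.24 in CD45+ cells. Both CD45+ arrays lay above all others. The difference passed in CD51+ BMSCs (-1.30 ± 0.289, SE, adjusted p = 0.0431) and in Osx+ cells (-1.25, adjusted p = 0.0352), and missed the threshold in P-SSCs (adjusted p = 0.0609), BM-SSCs (adjusted p = 0.1) and Nes+ BMSCs (adjusted p = 0.119). Both calls were lost on leaving out any of the CD51+, Osx+ or CD45+ arrays (adjusted p 0.0966 to 0.389). The second Pax5 probe set did not share the pattern, with 4.17 and 5.26 in P-SSCs against 3.83 and 4.19 in CD45+ cells. With the mean over both probe sets the CD51+ and Osx+ calls were lost (adjusted p 0.148 and 0.25), as on renewed quantile normalization (0.152 and 0.108). With arrays centred on their medians Pax5 passed in P-SSCs (adjusted p = 0.0201) and BM-SSCs (adjusted p = 0.0401). Which populations passed thus depended on the setting.

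Counted over the 9 genes, 4 were lower in P-SSCs than in CD45+ cells, against 7.29% of all probe sets called lower. In BM-SSCs 4 were lower (6.26% of all probe sets), in CD51+ BMSCs 5 (2.9%), in Nes+ BMSCs, from 1 array, 4 (4.49%) and in Osx+ cells 5 (5.62%). None was higher. The median over the 9 genes was -1.28 in P-SSCs, -1.43 in BM-SSCs, -1.30 in CD51+ BMSCs, -1.75 in Nes+ BMSCs and -2.11 in Osx+ cells. Over all probe sets the median was 0.38 in P-SSCs, 0.18 in BM-SSCs, -0.09 in CD51+ BMSCs, 0.12 in Nes+ BMSCs and 0.02 in Osx+ cells. The 4 genes Cd79a, Cd79b, Ms4a1 and Blnk made up the calls in P-SSCs, BM-SSCs and Nes+ BMSCs, and Pax5 was added in CD51+ BMSCs and Osx+ cells. With P-SSC array 2 and BM-SSC array 2 left out, the Ebf1 difference was 2.26 in P-SSCs and 1.38 in BM-SSCs. It was 2.07 in CD51+ BMSCs, 1.67 in Nes+ BMSCs and -0.91 in Osx+ cells. The share of all probe sets passing in that fit was not computed. Fitted on the P-SSC and CD45+ arrays alone, 0 genes passed in P-SSCs, and 1 passed when arrays were weighted by their fit. The CD51+ count fell to 0 without either CD45+ array, to 2 without CD51+ array 1, to 1 without CD51+ array 2 and to 3 without either Osx+ array, the Nes+ count to 2 without either CD45+ array, and the Osx+ count to 3 without Osx+ array 1 or CD45+ array 2.

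**Figure D2:**
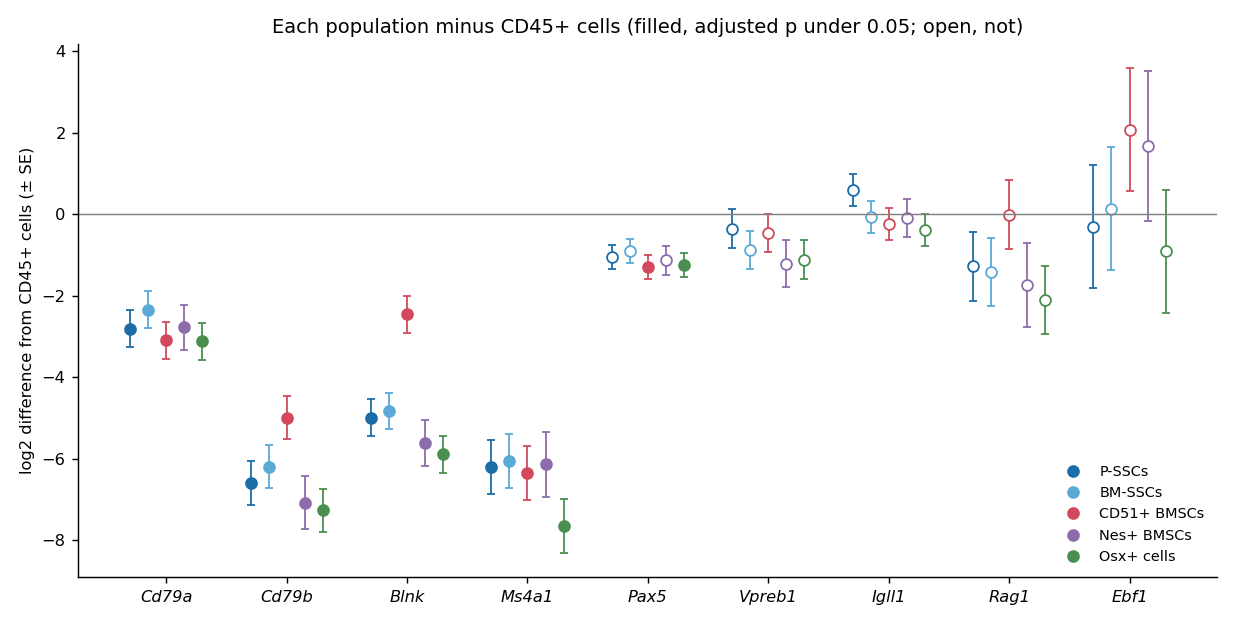
Log2 difference of each of 5 populations from CD45+ cells for the 9 genes, with standard errors from limma. Filled points passed at an adjusted p under 0.05. Cd79a, Cd79b, Blnk and Ms4a1 are filled in all 5 populations, Pax5 in CD51+ BMSCs and Osx+ cells, and Ebf1 lies on both sides of 0 with the widest errors.

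Ebf1 did not follow the other 8. It read 10.09 and 4.95 in P-SSCs, 9.21 and 6.72 in BM-SSCs, 9.64 and 10.17 in CD51+ BMSCs, 9.502 in Nes+ BMSCs and 7.35 and 6.49 in Osx+ cells, against 7.82 and 7.84 in CD45+ cells. Array 1 of the P-SSCs, array 1 of the BM-SSCs, both CD51+ arrays and the Nes+ array were above the CD45+ arrays, whereas array 2 of the P-SSCs, array 2 of the BM-SSCs and both Osx+ arrays were below them. The order of the means was CD51+ BMSCs, Nes+ BMSCs, BM-SSCs, CD45+ cells, P-SSCs and Osx+ cells. Of the neighbours in that order, BM-SSCs and P-SSCs each differed from CD45+ cells by less than the standard error of 1.51, and the other neighbours were not tested against each other.

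No Ebf1 difference passed over all arrays. P-SSCs differed from CD45+ cells by -0.31 ± 1.51 (SE, adjusted p = 0.874) and BM-SSCs by 0.13 (adjusted p = 0.96), and the difference was 2.07 in CD51+ BMSCs (adjusted p = 0.759), 1.67 in Nes+ BMSCs (adjusted p = 0.678) and -0.91 in Osx+ cells (adjusted p = 1). The spread was set by the SSC arrays. Leaving out P-SSC array 2 turned the P-SSC difference to 2.26, and leaving out P-SSC array 1 made it -2.88 (adjusted p = 0.0373). Without both second arrays, which left P-SSCs and BM-SSCs with 1 array each, P-SSCs differed by 2.26 (adjusted p = 0.00142) and BM-SSCs by 1.38 (adjusted p = 0.0173), and the difference was 2.07 in CD51+ BMSCs (adjusted p = 0.000899) and 1.67 in Nes+ BMSCs (adjusted p = 0.00442), and -0.91 in Osx+ cells (adjusted p = 0.037). Over all arrays the 4 other Ebf1 probe sets gave 0.33 to 1.71 in CD51+ BMSCs and -1.57 to 0.08 in P-SSCs. They gave -0.86 to 0.37 in BM-SSCs, -0.27 to 0.50 in Nes+ BMSCs and -1.80 to 0.24 in Osx+ cells. Their direction in Nes+ BMSCs was thus not uniform.

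The other Ebf genes, which encode near relatives of Ebf1, separated stroma from blood more clearly. Ebf2, known in osteogenic and fat precursors, read 7.19 and 4.97 in P-SSCs, 5.96 and 4.76 in BM-SSCs, 9.43 and 9.74 in CD51+ BMSCs, 5.37 in Nes+ BMSCs and 4.16 and 4.21 in Osx+ cells, against 2.82 and 3.19 in CD45+ cells. Ebf3, a marker of marrow reticular stroma, read 7.995 and 5.70 in P-SSCs, 7.06 and 5.78 in BM-SSCs, 7.23 and 7.56 in CD51+ BMSCs, 6.73 in Nes+ BMSCs and 5.92 and 6.004 in Osx+ cells, against 2.63 and 2.37 in CD45+ cells. Both CD45+ arrays were thus the lowest for Ebf2 and for Ebf3, and the CD51+ arrays were far above the rest for Ebf2. Outside CD45+ cells, Ebf2 read below the receptor genes' 95th percentile on both second SSC arrays, the Nes+ array and both Osx+ arrays. Ebf3 did so on both second SSC arrays. Ebf3 was higher than in CD45+ cells in all 5 populations, by 3.46 in Osx+ cells (adjusted p = 0.0254) to 4.89 in CD51+ BMSCs (adjusted p = 0.0114), and Ebf2 was higher in CD51+ BMSCs (6.58, adjusted p = 0.00425) and P-SSCs (3.07, adjusted p = 0.038). Ebf4 stayed between 3.22 and 4.89 and passed in P-SSCs (1.26, adjusted p = 0.0481), where it read below the receptor genes' 95th percentile on both arrays and where their median difference was 0.94. No direction of Ebf2, Ebf3 or Ebf4 turned when arrays were centred or quantile-normalized again, but the P-SSC call of Ebf2 was lost with both, that of Ebf4 with the new normalization, and with centring those of Ebf3 in Nes+ BMSCs and Osx+ cells, at adjusted p = 0.0737 and 0.0531. Of the 4 Ebf genes 3 were higher in P-SSCs, 1 in BM-SSCs, 2 in CD51+ BMSCs, 1 in Nes+ BMSCs and 1 in Osx+ cells. Of all probe sets, 2.48% were called higher in P-SSCs, 2.18% in BM-SSCs, 2.95% in CD51+ BMSCs, 0.735% in Nes+ BMSCs and 3.65% in Osx+ cells.

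**Figure D3:**
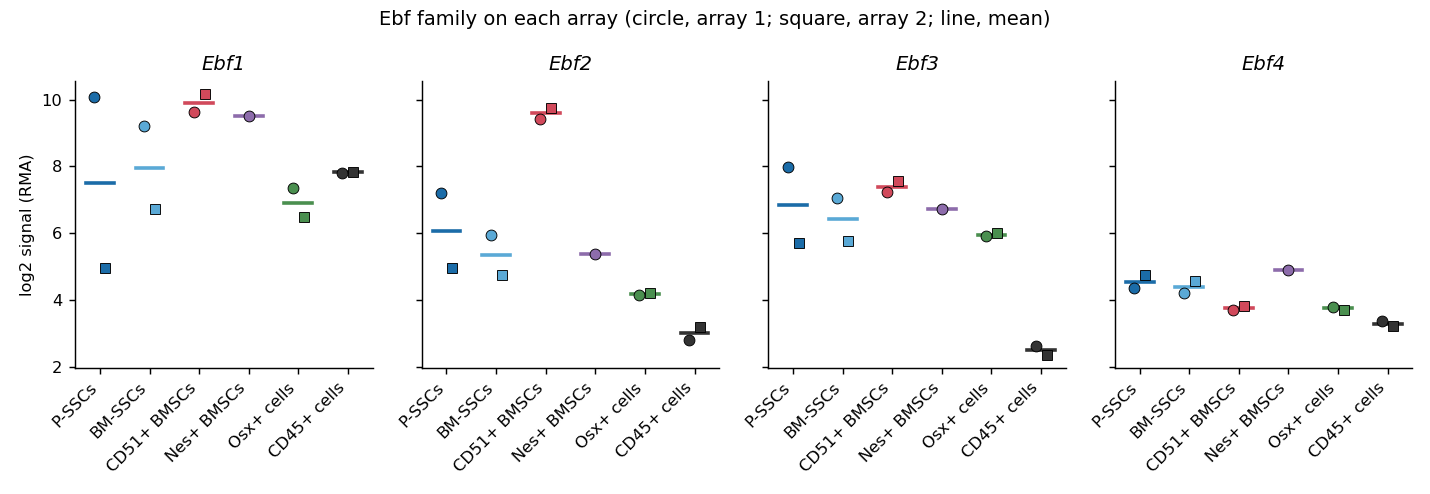
Log2 RMA signal of Ebf1 to Ebf4 on each array, drawn as in the plot of the 9 genes. CD45+ cells hold the lowest values of Ebf2 and Ebf3 and an intermediate value of Ebf1 (7.82 and 7.84), and Ebf2 is at 9.43 and 9.74 in CD51+ BMSCs.

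The other genes of the B lineage were read from lists, also chosen with earlier results of these data known. Of 17 further genes of the B cell surface and receptor signalling, 15 were lower in P-SSCs than in CD45+ cells, 15 in BM-SSCs, 14 in CD51+ BMSCs, 12 in Nes+ BMSCs and 16 in Osx+ cells. For this and the next 3 lists, the share of all probe sets called lower was again 7.29% in P-SSCs, 6.26% in BM-SSCs, 2.9% in CD51+ BMSCs, 4.49% in Nes+ BMSCs and 5.62% in Osx+ cells. In CD51+ BMSCs the largest differences were those of Fcmr, the receptor for IgM (-6.76, adjusted p = 0.000964), the scaffold Bank1 (-5.55, adjusted p = 0.00513), the follicle homing receptor Cxcr5 (-5.27, adjusted p = 0.00167) and the complement receptor Cr2 (-5.20, adjusted p = 0.00831). Of 10 genes of early B cells and recombination 3 were lower in P-SSCs, 3 in BM-SSCs, 2 in CD51+ BMSCs, 3 in Nes+ BMSCs and 4 in Osx+ cells. In CD51+ BMSCs the 2 were Il7r, the receptor chain for interleukin 7 (-3.40, adjusted p = 0.0236), and Dntt, the enzyme that adds bases at rearranged joints (-2.03, adjusted p = 0.0245).

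Of 12 further transcription factors of the lineage, 7 were lower than in CD45+ cells in P-SSCs, 7 in BM-SSCs, 3 in CD51+ BMSCs, 6 in Nes+ BMSCs and 7 in Osx+ cells. The 3 in CD51+ BMSCs were Pou2af1, the octamer coactivator (-4.93, adjusted p = 0.0101), Irf8 (-4.45, adjusted p = 0.00538) and Spib (-2.96, adjusted p = 0.0161), the last a factor shared with plasmacytoid dendritic cells. Of 4 immunoglobulin genes 2 were lower in each of the 5 populations. In CD51+ BMSCs these were the heavy chain genes Ighm (-4.91, adjusted p = 0.0128) and Igha (-4.66, adjusted p = 0.0114). Ighm nevertheless read 9.18 and 7.83 on the CD51+ arrays, 6.08 to 8.78 on the P-SSC, BM-SSC, Nes+ and Osx+ arrays, and 13.05 and 13.78 in CD45+ cells.

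The CD51+ BMSCs were also set against Osx+ cells, the other CD45- sort with 2 closely matching arrays. Blnk was the 1 gene of the 9 that passed, higher by 3.43 ± 0.452 in CD51+ BMSCs (SE, adjusted p = 0.00949), while 1.51% of all probe sets were called higher. The call was lost without any of the 4 arrays compared (adjusted p 0.0621 to 0.126). Cd79b differed by 2.27 (adjusted p = 0.0939), Rag1 by 2.09 (adjusted p = 0.482), Ms4a1 by 1.29 (adjusted p = 0.758) and Ebf1 by 2.98 (adjusted p = 0.75). Leaving out both second SSC arrays did not alter these differences, which come from the CD51+ and Osx+ arrays. It narrowed the standard error of Ebf1 from 1.51 to 0.288. The share of all probe sets passing in that fit was not computed.

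Markers of other blood cells moved with Blnk in that comparison. Of 12 pan-leukocyte genes 9 were higher in CD51+ BMSCs than in Osx+ cells (median difference 4.78), of 12 neutrophil genes 6 (median 6.12) and of 10 monocyte and macrophage genes 8 (median 5.28). Of the B lineage lists, 2 of 17 surface and signalling genes (median 0.86), 2 of 12 transcription factors (median 0.84) and 0 of 10 early genes were higher, and the lists were not tested against each other. The 4 that passed, named after their values were seen, were Syk, Pik3ap1, Spib and Irf4, which myeloid or dendritic cells also use. T and NK cell genes had 0 of 12 higher and a median of -0.15, and all probe sets had a median of -0.07. By array, the neutrophil median was 11.96 and 11.86 in CD51+ BMSCs and 4.40 and 7.73 in Osx+ cells. In P-SSCs the neutrophil median was 9.44 and 6.08, in BM-SSCs 9.54 and 7.92 and in Nes+ BMSCs 7.74. Cd14, the endotoxin co-receptor of monocytes, was higher by 5.77 (adjusted p = 0.0025) and Ccr2, their chemokine receptor, by 3.12 (adjusted p = 0.00919). Cd14 was in CD51+ BMSCs also higher than in CD45+ cells, by 3.81 (adjusted p = 0.00659). The other 9 monocyte and macrophage genes were there lower by mean, Ccr2 by -4.58 (adjusted p = 0.0028). The part of other blood cells in the Blnk value was not tested.

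**Figure D4:**
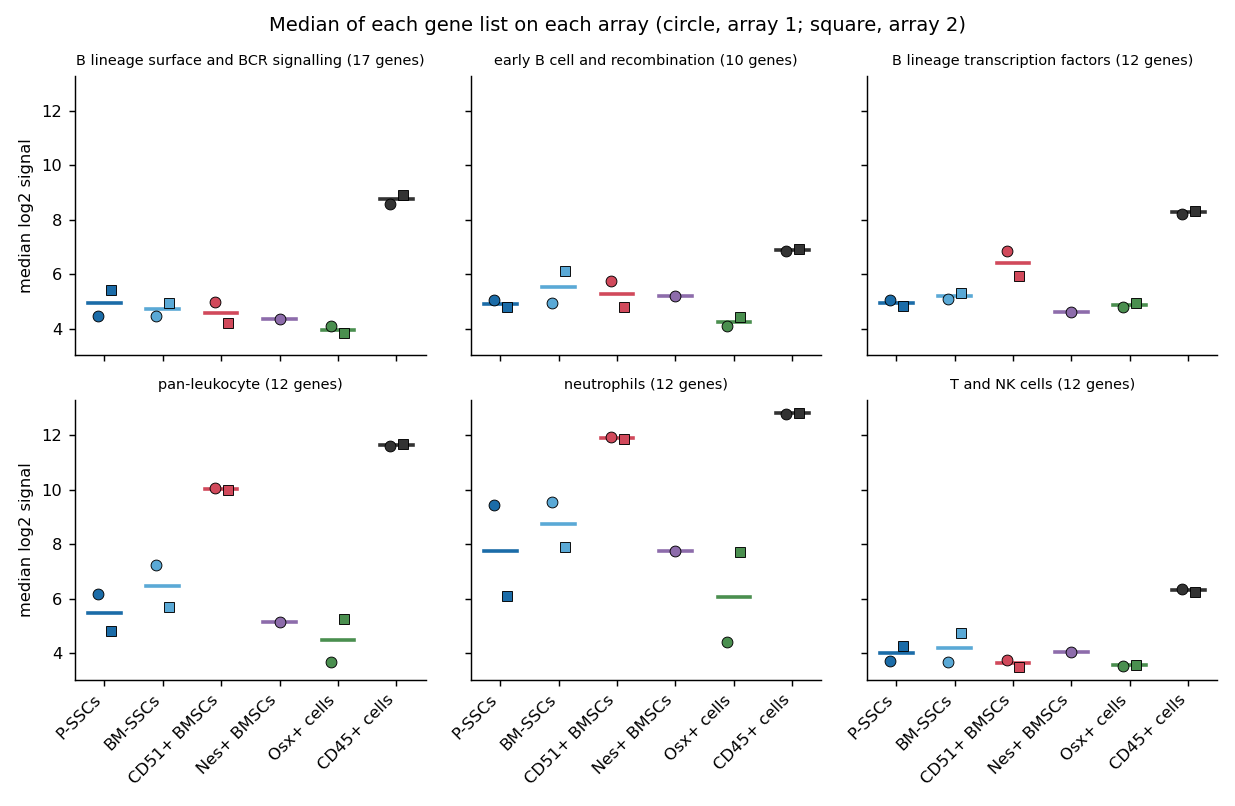
Median log2 signal of 6 gene lists on each array, drawn as in the plot of the 9 genes. The pan-leukocyte and neutrophil lists are high in CD51+ BMSCs (neutrophils 11.96 and 11.86) as well as in CD45+ cells, whereas the B surface list and the T and NK list are high in CD45+ cells alone. The neutrophil list lies between 6.08 and 9.54 in P-SSCs, BM-SSCs and Nes+ BMSCs.

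The 2 CD51+ arrays were nearly alike over all probe sets (correlation 0.993) but not over B lineage genes. All 8 of the genes other than Ebf1 were higher on array 1 than on array 2, by 0.27 to 2.85 with a median of 0.87. Over all 18193 genes 50.1% were higher on array 1, with a median of 0.00049 and a range of -1.85 to 2.85. Rag1, at 6.17 and 3.33, had the largest such difference of all genes, and Cd79b, at 7.25 and 5.62, the rank of 15. The other B lineage lists leaned the same way, with 36 of 43 genes (83.7%) higher on array 1 and a median of 0.35. Pou2af1 read 6.22 and 3.71 and ranked as number 4, and the plasma cell gene Jchain, at 6.64 and 4.65, as number 9. Neutrophil genes were split, 6 of 12 higher with a median of 0.0029, as were monocyte and macrophage genes, 4 of 10 with a median of -0.07. Within the neutrophil list, Mpo (11.12 and 9.44, number 12), Ctsg (9.80 and 8.17, number 14), Prtn3 (10.13 and 8.59) and Elane (6.41 and 5.64) were higher on array 1. Large differences between the 2 arrays were thus not limited to B lineage genes. Other lists leaned to array 1 by count, with 9 of 12 pan-leukocyte genes (median 0.068), 32 of 41 ribosomal protein genes (median 0.072) and 4 of 5 plasma cell genes (median 0.22) higher, and Ptprc read 10.23 and 10.17. All 4 Ebf genes were lower on array 1, with differences of -0.53 to -0.11. With 2 arrays this difference is a description of the pair and has no test. The 8 genes other than Ebf1 also leaned to 1 side in other pairs. In CD45+ cells 0 of 8 were higher on array 1 (median -0.18, 48.4% of all genes higher). In P-SSCs 0 of 8 were too (median -0.47, 46.8%). In BM-SSCs 2 of 8 were higher (median -0.31, 50.3%) and in Osx+ cells 3 of 8 (median -0.10, 40.3%).

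**Figure D5:**
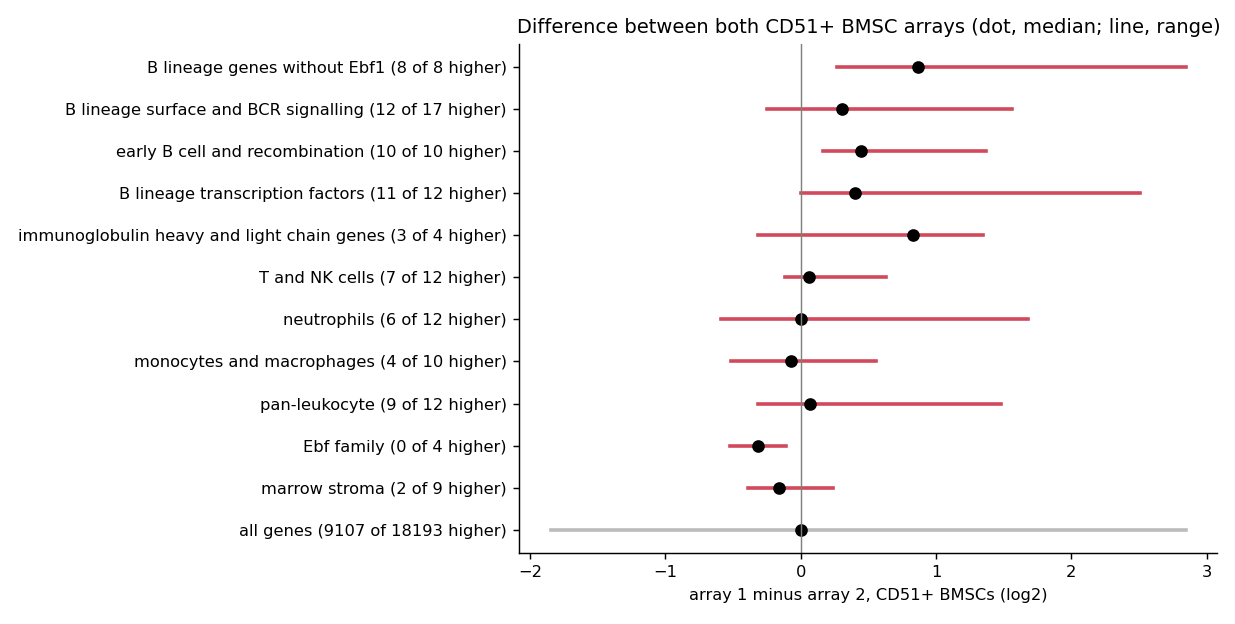
CD51+ array 1 minus CD51+ array 2 on the log2 scale for 11 gene lists and for all genes, with dots for medians and lines for the range. The 8 B lineage genes without Ebf1 are all to the right of 0 (median 0.87), the neutrophil and macrophage lists centre near 0, and the 4 Ebf genes are to the left. The neutrophil list ranges from -0.59 to 1.68.

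P-SSCs and BM-SSCs were finally compared with CD51+ BMSCs and with each other. Against CD51+ BMSCs 0 of the 9 genes passed in P-SSCs, where 0.595% of all probe sets were called, and 0 in BM-SSCs, where 0.617% were. Blnk came nearest, with P-SSCs at -2.53 ± 0.452 (SE, adjusted p = 0.0692) and BM-SSCs at -2.37 (adjusted p = 0.0878). At an unadjusted p under 0.05 there were 2 genes in P-SSCs, Blnk and Cd79b, and 1 in BM-SSCs, Blnk. Of all 45037 probe sets 10146 were under it in P-SSCs and 5166 in BM-SSCs. The shares among the 9 genes were thus near those of all probe sets. Between P-SSCs and BM-SSCs 0 of the 9 passed, as did 0% of all probe sets, with 931 probe sets at an unadjusted p under 0.05. The differences ranged from -0.48 for Cd79a to 0.67 for Igll1, with standard errors of 0.289 to 1.51.

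Across all 11 arrays the genes fell into related and unrelated profiles. The signal of Cd79a correlated with that of Ms4a1 at 0.972, of Pax5 at 0.972, of Cd79b at 0.910, of Blnk at 0.791, of Vpreb1 at 0.543, of Rag1 at 0.521, of Igll1 at 0.221 and of Ebf1 at -0.249. Outside the 9, the genes most like Cd79a were Usp3 (0.983), Klhl14 (0.981) and Cpa3 (0.977), a mast cell protease that read 9.80 and 9.85 in CD45+ cells and 3.63 to 5.61 elsewhere. Those most like Ebf1 were Irf1 (0.972), an interferon response factor, the thrombin receptor F2r (0.962) and the adhesion molecule Icam1 (0.953). These 3, like Ebf1, were lowest on P-SSC array 2 (7.59, 2.75 and 5.11). Such correlations over 11 arrays of 6 populations describe the profile, in which the CD45+ arrays and array 2 of the SSCs carry much of the spread.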

How the data were processed

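Amplified cDNA was hybridised to Affymetrix mouse arrays designed for 3′ expression, although the labels and methods name a kit for whole transcript labelling. The effect of this was not tested. In Partek GS and R the authors ran RMA, which subtracts background, equalises the distributions of the arrays and summarises probes by median polish, and they deposited log2 values per probe set. The deposited arrays do not share 1 distribution (interquartile ranges of 1.81 to 3.56), so normalizing again was among the alternatives. The number of arrays limits the precision. The log2 values were used as they stand, with no filter on signal. Of 45101 probe sets 64 controls were left out and 45037 tested. Names came from the platform annotation, in which 34945 tested probe sets have 1 symbol, 932 several and 9160 none. Matching 34754 to RefSeq by gene ID changed 0 symbols.

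A linear model that gives each population its own mean, with all 11 arrays in the fit, was run in limma 3.58.1 (R 4.3.3), with 5 residual and 2.65 prior degrees of freedom. Tests were two-sided, with Benjamini-Hochberg adjustment over all tested probe sets within a comparison. The 9 comparisons are those of the text, and the fit was tested on simulated data. These had the spread of the CD51+, Osx+ and CD45+ pairs and changes in CD51+ BMSCs alone. They do not show how the fit behaves with the uneven P-SSC and BM-SSC arrays. All 9 genes are named, with up to 4 genes of a list by their difference between CD51+ BMSCs and CD45+ cells, the Ebf family, and the 3 genes most correlated with Cd79a and with Ebf1. The genes and lists were chosen with earlier results of these data known. Each array was left out in turn, and normalization, centring, arrays fitted, filter, variance model, replicate block, probe sets, threshold and array weights were varied.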

Additional observations from a re-analysis of the deposited data

How the results depend on the processing

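Over 22 alternative settings the 54 values of a B lineage gene against CD45+ cells, or in CD51+ BMSCs against Osx+ cells, kept direction and side of the threshold in 1028 of 1158 cases, passed no longer in 64, passed newly in 48 and changed sign in 18, and 0 of the 23 calls changed sign. The cause was not tested. For alternative settings other than unadjusted p, the share of all probe sets passing was not computed. With unadjusted p under 0.05, 4040 of 45037 probe sets passed in CD51+ BMSCs against Osx+ cells. In P-SSCs against CD51+ BMSCs 10146 did, and in BM-SSCs against CD51+ BMSCs 5166. For P-SSCs against CD45+ cells the count of 4 genes became 0 with only the compared arrays and 1 with array weights. For Nes+ BMSCs against CD45+ cells 4 became 8 with only the compared arrays, 7 with array weights and 7 without array 2 of P-SSCs and BM-SSCs, and for Osx+ cells 5 became 8 with array weights. For CD51+ BMSCs against Osx+ cells 1 became 3 with only the compared arrays, 3 with unadjusted p, 4 with array weights and 4 without both second SSC arrays. For P-SSCs against CD51+ BMSCs 0 became 1 with centring, 1 with the mean over probe sets, 2 with unadjusted p and 1 without both second SSC arrays, and for BM-SSCs against CD51+ BMSCs 0 became 1 with centring, 1 with unadjusted p and 1 without both second SSC arrays. Against CD45+ cells Ebf1 turned to 2.26 in P-SSCs without both second SSC arrays, and to -0.12 with centring and -0.40 with the mean over probe sets in BM-SSCs, while Igll1 turned to 0.19 in BM-SSCs and 0.13 in Nes+ BMSCs on renewed quantile normalization, as did Pax5 in CD51+ BMSCs against Osx+ cells (0.0098).

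Leaving out 1 array in turn gave 0 to 5 genes for CD51+ BMSCs against CD45+ cells, 2 to 5 for Nes+ BMSCs, 3 to 5 for Osx+ cells, 0 to 1 for CD51+ BMSCs against Osx+ cells, 0 to 2 for P-SSCs against CD51+ BMSCs (2 without P-SSC array 1) and 0 to 1 for BM-SSCs against CD51+ BMSCs (1 without either P-SSC array). Against CD45+ cells Ebf1 then ran from -2.88 to 2.26 in P-SSCs and from -1.11 to 1.38 in BM-SSCs, Igll1 from -0.41 to 0.26 in BM-SSCs, and in CD51+ BMSCs Vpreb1 from -1.13 to 0.21, Igll1 from -0.64 to 0.13 and Rag1 from -1.44 to 1.41. In CD51+ BMSCs against Osx+ cells Cd79a ran from -0.29 to 0.35, Pax5 from -0.18 to 0.091, Vpreb1 from -0.011 to 1.33 and Igll1 from -0.24 to 0.53. Deviations of array 1 correlated at 0.784 between P-SSCs and BM-SSCs, the populations whose second arrays were compressed. No label pairs the arrays of these populations, and the cause of the correlation was not tested. In every other pair of populations the correlation was -0.267 to 0.0115. The main fit did not pair arrays between populations. With a replicate block, 0 of the genes passed between P-SSCs and BM-SSCs. A replicate block gave 4 genes in P-SSCs, BM-SSCs, CD51+ BMSCs and Osx+ cells against CD45+ cells and 1 in CD51+ BMSCs against Osx+ cells, and the Pax5 calls were lost with it (adjusted p = 0.0665 in CD51+ BMSCs and 0.0566 in Osx+ cells).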

Other observations

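Of 7 genes by which stroma supports B cell precursors 3 were higher in CD51+ BMSCs than in CD45+ cells (2.95% of all probe sets were), 1 in P-SSCs (2.48%), 1 in BM-SSCs (2.18%), 0 in Nes+ BMSCs (0.735%) and 0 in Osx+ cells (3.65%). The 3 in CD51+ BMSCs were Igf1 (7.12 ± 1.56, SE, adjusted p = 0.0406), Il7 (2.07, adjusted p = 0.0187) and Tslp (1.84, adjusted p = 0.0467). Cxcl12 and Kitl were higher there by 7.14 ± 1.93 and 5.705 ± 1.61 (SE), but missed the threshold (adjusted p = 0.0832 and 0.0953). Cxcl12 read 12.43 and 5.06 in P-SSCs, a spread that enters the standard error of every comparison. By mean, 6 of the 7 genes were higher in Nes+ BMSCs and 4 in Osx+ cells. Cxcl12 read 11.34 in Nes+ BMSCs and 8.63 and 9.42 in Osx+ cells, against a mean of 3.64 in CD45+ cells. Il7, the growth factor of pro-B cells, read 5.31 and 5.68 in P-SSCs, 4.13 and 4.27 in BM-SSCs, 5.81 and 5.25 in CD51+ BMSCs, 3.59 in Nes+ BMSCs and 3.73 and 4.08 in Osx+ cells, against 3.70 and 3.22 in CD45+ cells. In P-SSCs the difference was 2.04 (adjusted p = 0.0161), at readings below the 95th percentile of the receptor genes on both arrays (5.43 and 6.997), whose median difference there was 0.94. Cxcl12 passed in BM-SSCs (8.08, adjusted p = 0.0446), and Tnfsf13b, which encodes the B cell survival factor BAFF, was lower there (-1.47, adjusted p = 0.0228).

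Of 12 T and NK cell genes 7 were lower than in CD45+ cells in each of the 5 populations, where 2.9% to 7.29% of all probe sets were. In CD51+ BMSCs the granule protease Gzma differed by -5.91 (adjusted p = 0.00281) and the T cell receptor gene Cd3g by -4.26 (adjusted p = 0.00175). Of 5 plasma cell genes 1 was lower in CD51+ BMSCs, Jchain, which joins IgM and IgA into polymers (-5.89, adjusted p = 0.0248), while Prdm1 differed by -1.43 (adjusted p = 0.0582), Tnfrsf17 by -0.76 (adjusted p = 0.926) and Sdc1 by 1.10 (adjusted p = 0.472).

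The 20 genes with the largest excess on CD51+ array 1 over CD51+ array 2 also held Mbp, Olig1, Mog and Mpo, named after their values were seen. Mbp, a myelin protein gene, read 10.51 and 8.63 on CD51+ arrays 1 and 2, against 5.08 and 4.82 in CD45+ cells. Olig1 read 5.69 and 3.003 in CD51+ BMSCs, against 3.38 and 3.38 in CD45+ cells, and Mog 3.89 and 2.30, against 2.40 and 2.50. Mpo, a granule gene of immature myeloid cells, read 11.12 and 9.44 in CD51+ BMSCs, against 12.99 and 13.06 in CD45+ cells. These are values of a single pair of arrays, and no difference between them was tested.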
